A study of Mus musculus with 4 samples.

Results

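The genes described here encode small proline-rich proteins (Sprr1a, Sprr1b, Sprr2d, Sprr2h, Sprr3 and Sprr4) and 3 further proteins laid down late in the cornified envelope, loricrin (Lor), involucrin (Ivl) and cornifelin (Cnfn). They were measured in mouse skin cells a day after the microRNA miR-203 was induced. The members were chosen by name, as every probe set (a group of short probes for 1 transcript) that the platform annotation gives to exactly 1 of these 9 genes. Such probe sets were found for 8 of the 9, namely 5 Sprr genes and all 3 others, and Sprr4 was not analysed here. The 8 genes had 11 probe sets among 27022 kept for testing, and 1 probe set, the one with the highest mean, stood for each of 13489 genes. All 11 passed the filter on dim probe sets.

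The series held 4 Affymetrix arrays, 2 from induced and 2 from control pups, taken at postnatal day 4 on the FVB background, at a time labelled 24 h after a doxycycline injection. Induced pups carried the transgenes K14-rtTA, TRE-miR-203 and K14-H2BGFP, in which the keratin 14 promoter, active in basal keratinocytes and the outer root sheath, drives both the doxycycline-dependent activator rtTA and a nuclear green fluorescent protein. Control littermates carried TRE-miR-203 and K14-H2BGFP without the activator, and their labels call them both WT and uninduced. All 4 RNAs came from cells of epidermal samples isolated by flow cytometry, for which the sources used here give no sorting gate. The groups differed in rtTA as well as in miR-203, and whether control pups also received doxycycline is not clear from the labels, so that effects of miR-203, rtTA and the drug cannot be told apart. The comparison asks how the messenger RNAs of the late envelope differed a day after miR-203 was switched on. The labels call the arrays of a group biological replicates without naming the animals. P-values measure the spread between these arrays only, in part through a spread shared across probe sets.

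The cornified envelope replaces the plasma membrane of keratinocytes as they die at the skin surface. Involucrin is among the first proteins that transglutaminases cross-link beneath the membrane, loricrin is the most abundant envelope protein of the epidermis, and small proline-rich proteins act as cross-bridges between loricrin molecules. Cornifelin is a further envelope component. Sprr1 and Sprr2 proteins are scarce in normal interfollicular epidermis compared with oral and forestomach epithelium, and their genes are known to respond to stress and wounding. Genes of the Sprr family lie side by side with Lor and Ivl in the epidermal differentiation cluster on mouse chromosome 3, whereas Cnfn lies on chromosome 7. The microRNA miR-203 marks the differentiating layers, where these genes are switched on.

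The induced agent and the upstream regions of the genes on which the comparison turns are shown to place the values. The mature mmu-miR-203-3p (RefSeq, GRCm38.p6, chr12:112130927-112130948, plus strand) is printed with its seed, bases 2 to 8, in capitals.
mmu-miR-203-3p: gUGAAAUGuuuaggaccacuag
It was not measured here, so its induction was not checked. For all 9 members RefSeq promoters of 300 bases were at hand (250 before and 50 after a transcript start, GRCm38.p6). The 200 bases before that start follow for Sprr1a (chr3:92485882-92486081), Sprr1b (chr3:92438780-92438979), Lor (chr3:92083143-92083342) and Ivl (chr3:92573736-92573935), each on the minus strand and written 5′ to 3′, since the first pair was higher in the induced arrays and the second pair differed little. Capitals mark TGANTCA, a loose form of the AP-1 motif in which N is any base, and which reads alike on both strands.
Sprr1a: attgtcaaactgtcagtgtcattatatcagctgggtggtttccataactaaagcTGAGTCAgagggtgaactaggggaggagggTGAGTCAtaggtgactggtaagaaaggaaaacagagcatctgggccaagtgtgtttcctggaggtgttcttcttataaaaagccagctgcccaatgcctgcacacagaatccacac
Sprr1b: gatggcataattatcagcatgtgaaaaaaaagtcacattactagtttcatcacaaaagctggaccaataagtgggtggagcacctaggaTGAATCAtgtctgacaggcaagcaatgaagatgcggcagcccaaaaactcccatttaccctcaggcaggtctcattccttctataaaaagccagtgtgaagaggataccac
Lor: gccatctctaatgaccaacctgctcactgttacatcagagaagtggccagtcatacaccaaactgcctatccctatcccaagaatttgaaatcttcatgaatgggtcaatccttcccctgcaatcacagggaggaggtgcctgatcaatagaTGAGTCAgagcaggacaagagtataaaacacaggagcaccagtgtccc
Ivl: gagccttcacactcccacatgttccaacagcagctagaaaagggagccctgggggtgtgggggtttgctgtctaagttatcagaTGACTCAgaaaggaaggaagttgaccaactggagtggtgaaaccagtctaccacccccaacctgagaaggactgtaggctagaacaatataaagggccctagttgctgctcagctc
Sprr1a held 2 matches, beginning 146 and 116 bases before the start. Sprr1b held 1 at 111 bases, Ivl 1 at 116 bases and Lor 1 at 48 bases. The match in Sprr1b was TGAATCA, whereas those of Sprr1a, Ivl and Lor had G or C in the middle. In the 300-base promoters Sprr2d and Sprr2h also held 1 match each, at 193 and 198 bases, while Sprr3, Sprr4 and Cnfn had none, against 7.81% of 32851 promoters of that length with a match. The octamer ATTTGCAT, searched on both strands, was found in Sprr2d at 108 bases and in Sprr2h at 109 bases, against 1.74% of all promoters. It was also in Sprr2b, Sprr2e, Sprr2f, Sprr2i and Sprr2k, but not in Sprr2a1, Sprr2a2 or Sprr2a3. As Sprr2 genes are near copies of one another, the share of all promoters is no measure of enrichment here. Members with higher values and members with nearly equal values thus both held this loose AP-1 pattern, and the octamer occurred in both Sprr2 members, 1 higher and 1 not. A match is a description of the letters only.

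The 4 arrays had closely matching medians, from 4.74 to 4.79 in deposited log2 units, which the normalization between arrays brings about. Induced replicate 1 stood apart in sex-linked transcripts. The Y-linked gene Eif2s3y had a log2 value of 9.38 there and 2.52 to 2.82 on the other 3 arrays, and Xist, the RNA of the inactive X chromosome, had 5.86 there and 10.6 to 11.2 elsewhere. Member values are therefore also given without that array. The keratinocyte identity of the cells was plain in all 4 arrays, Krt14 lying at 13.96 to 14.13 and Krt10 at 14.19 to 14.32. Of all 27022 probe sets, 0 (0%) had a Benjamini-Hochberg adjusted p under 0.05 in limma and 2728 had an unadjusted p under 0.05. When limma's prior was allowed to depend on expression level and to down-weight extreme variances (trended and robust), 0.466% were called, 68 higher and 58 lower in the induced arrays.

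Sprr1a, Sprr1b and Sprr2d lay above both controls in each induced array, by 1.22-fold to 1.41-fold, while Sprr2h and Sprr3 overlapped between the groups. Of all 13489 genes, 20.1% lay above both controls in each induced array and 19.3% below, so that 3 of 5 Sprr genes higher is read against 20.1%. In RNA of a sorted population, a change in the number of cells of a type and one in the RNA per cell cannot be told apart. None of the 5 passed the threshold over all probe sets in limma with its default prior. At an unadjusted p under 0.05, Sprr1a and Sprr1b were higher, where 4.4% of all genes were higher and 5.23% lower.

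Sprr1a encodes a cross-bridging protein known to be induced in injured epithelia. Its probe set ranked 451 of 45037 by mean, and the signal was already high in control arrays (mean 11.94). Its log2 values were 11.879 and 12.003 in control arrays, against 12.393 and 12.485 after induction, so that the lowest induced value exceeded the highest control value by more than the gap within either group. The difference of the means was 0.50 ± 0.10 (SE, n = 2 and 2), which is 1.41-fold with a 95% interval of 1.18 to 1.69 (limma, adjusted p = 0.247). Of all kept probe sets, 2.93% differed by more in either direction. With the trended and robust prior the same difference was called (adjusted p = 0.0305), and over the alternatives computed for Sprr1a the adjusted p ran from 0.0305 to 0.739. Without induced replicate 1 the difference was 0.54.

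Sprr1b, the other Sprr1 gene measured, had log2 values of 9.20 and 9.06 in control arrays, against 9.55 and 9.49 after induction. Both induced arrays were again above both controls. The difference was 0.38 ± 0.10, or 1.31-fold (95% interval 1.09 to 1.56; limma, adjusted p = 0.33), and it was 0.36 without induced replicate 1. Sprr2d, a member of the large Sprr2 subfamily, had values of 7.12 and 6.96 in control arrays, against 7.43 and 7.23 after induction. Induced replicate 2 lay nearer to the controls than did induced replicate 1. The difference was 0.29 ± 0.12, or 1.22-fold (95% interval on the log2 scale -0.0049 to 0.59; limma, adjusted p = 0.502), and it was 0.19 without induced replicate 1.

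Sprr2h had log2 values of 9.47 and 9.49 in control arrays, against 9.52 and 9.25 after induction. The induced values lay on either side of the controls, with a difference of -0.09 ± 0.12 (95% interval -0.39 to 0.21; limma, adjusted p = 0.88), whose sign turned without induced replicate 2 (0.04). Sprr2 genes are near copies of one another, and the suffix of this probe set (_s_at) marks probes shared between transcripts, so its assignment to Sprr2h alone is uncertain. Sprr3, a member typical of oral and oesophageal epithelium, was dim, with values of 5.08 and 4.93 in control arrays, against 4.89 and 5.15 after induction. The difference was 0.02 ± 0.13 (95% interval -0.30 to 0.34; limma, adjusted p = 0.987), and its sign turned without control replicate 2 (-0.06) or induced replicate 2 (-0.11). The interval of Sprr3 still holds a difference as large as that of Sprr2d.

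**Figure D1:**
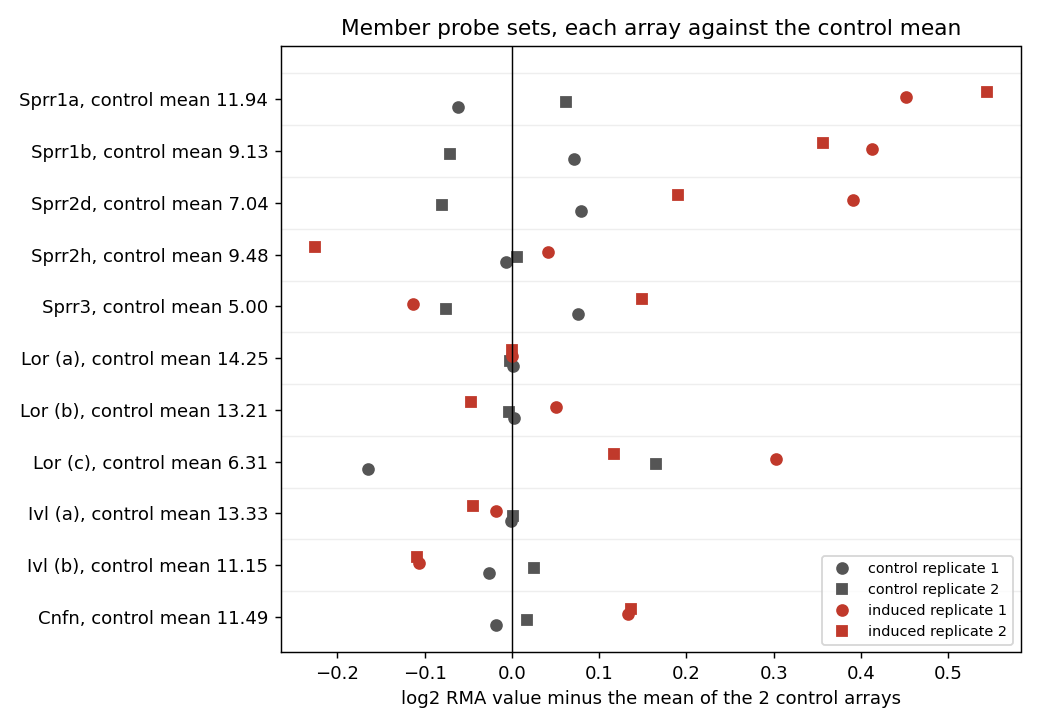
Log2 RMA value of each of the 11 member probe sets on each array, minus the mean of the 2 control arrays; letters tell apart probe sets of 1 gene, and symbols tell apart replicates. Both induced arrays (red) lie to the right of both controls (grey) for Sprr1a, Sprr1b, Sprr2d and Cnfn, and to the left for both Ivl probe sets.

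Lor, Ivl and Cnfn differed by -0.03 to 0.13 in their brightest probe sets. Lor, the main scaffold protein, had log2 values of 14.25 on each of the 4 arrays in its brightest probe set, whose 4 values spanned 0.0031. The difference was 0.00 ± 0.09 (95% interval -0.23 to 0.23; limma, adjusted p = 1). That probe set ranked 25 of 45037 by mean, near the highest value on any array (14.61), and the 100 brightest probe sets spanned 0.05 at the median against 0.28 for all kept ones. Whether differences are compressed at this level was not tested. This Lor probe set has the same suffix (_s_at) as that of Sprr2h. A less bright Lor probe set had values of 13.22 and 13.21 in control arrays, against 13.27 and 13.17 after induction. It also differed by 0.00 ± 0.10 (95% interval -0.24 to 0.24), with the induced values on either side of the controls. The dimmest Lor probe set, with a control mean of 6.31, differed by 0.21 ± 0.14 and overlapped between the groups (limma, adjusted p = 0.706).

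Ivl had log2 values of 13.33 and 13.34 in control arrays, against 13.32 and 13.29 after induction in its brightest probe set, a difference of -0.03 ± 0.09 (95% interval -0.26 to 0.20; limma, adjusted p = 0.964). Its other probe set had values of 11.12 and 11.17 in control arrays, against 11.04 in both arrays after induction, a difference of -0.11 ± 0.09 (adjusted p = 0.784). Both induced arrays were below both controls in each probe set, by amounts smaller than the standard error or close to it. Cnfn had values of 11.47 and 11.50 in control arrays, against 11.62 in both arrays after induction. Both induced arrays were above both controls, with a difference of 0.13 ± 0.09, or 1.10-fold (95% interval 0.94 to 1.29; limma, adjusted p = 0.706). Replicates of Cnfn, Ivl and the brightest Lor probe set lay closer together than is typical of the array, and the model widened their errors towards the common spread. For that Lor probe set the SD within groups was 0.0016, against a median of 0.109 over kept probe sets. Its standard error and interval thus come mostly from the common spread.

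Set side by side, the Sprr genes had a median difference of 0.29 and Lor, Ivl and Cnfn one of 0.00, while the median over all 13489 genes was -0.0008. The ranges were -0.09 to 0.50 for the 5 Sprr genes and -0.03 to 0.13 for the other 3. The median of the Sprr genes less that of the 3 was 0.29, and it ran from 0.19 without induced replicate 1 to 0.39 without induced replicate 2. The scaffold median is the value of the brightest Lor probe set, which lies near the top of the scale, and with each gene as the mean of its probe sets, the dimmer Lor probe sets included, Lor differed by 0.07 and the gap between the medians was 0.22. Each Sprr gene was also compared with each of the 3 within an array, in 15 pairs that reuse the same 8 genes. The difference of Sprr1a exceeded that of Lor by 0.50, that of Ivl by 0.53 and that of Cnfn by 0.36, and for Sprr1b these excesses were 0.38, 0.42 and 0.25. With 2 arrays against 2 the exact two-sided permutation test cannot go below p = 0.333, the value for each of these 6 pairs. After Benjamini-Hochberg adjustment over 15 it was 0.555. Since no outcome of this test could have passed the threshold, it does not decide whether the genes differed. Over all 15 pairs, 8 did not overlap between the groups with the Sprr gene higher. Each of these held Sprr1a, Sprr1b or Sprr2d, which already lay above both controls, so the count adds no further support. The share of such pairs among all genes was not computed. In 1 pair without overlap, Sprr2h against Cnfn (-0.23), the Sprr gene was lower. Sprr2h and Sprr3 lay beside Lor and Ivl in mean difference, so that not all of the 5 Sprr genes stood apart. The assignment of the Sprr2h probe set is uncertain and the interval of Sprr3 is wide, so a difference in either is not excluded. Without induced replicate 1 the differences were -0.23 for Sprr2h, 0.15 for Sprr3, 0.00 for Lor, -0.04 for Ivl and 0.14 for Cnfn.

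**Figure D2:**
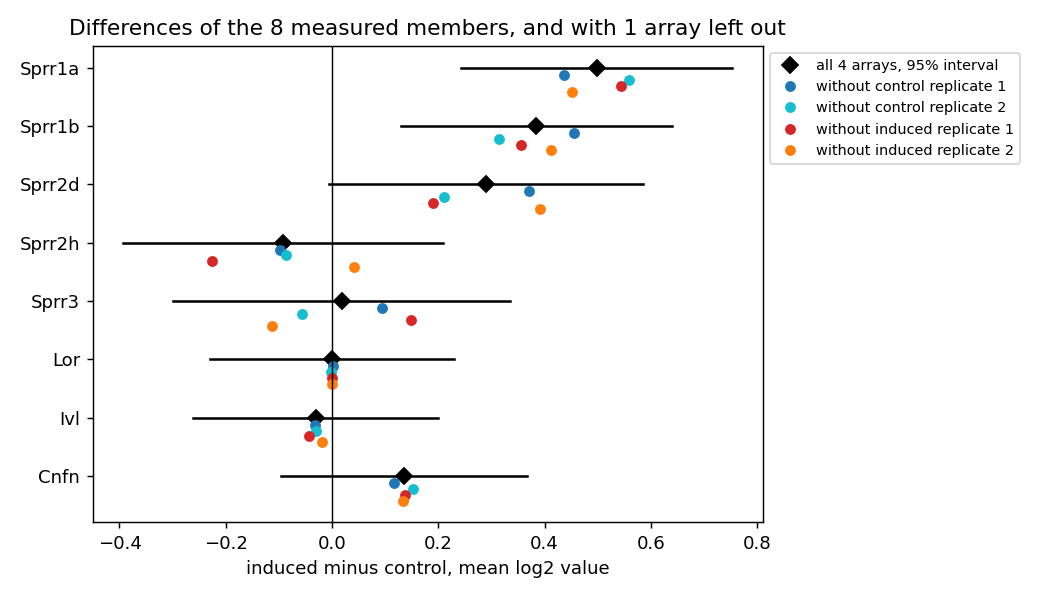
Difference of mean log2 value, induced minus control, for the 8 measured members, with 95% intervals from limma (black) and the difference with each array left out (coloured points). All 4 points of Sprr1a, Sprr1b, Sprr2d and Cnfn lie above 0 and those of Ivl below, while those of Sprr2h, Sprr3 and Lor lie on both sides of 0 or at it.

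The neighbours of the members in the cluster were set beside them. From Lor to Tchhl1 there were 33 measured genes in chromosome order, 8 of them (24.2%) higher in both induced arrays and 10 (30.3%) lower, against 20.1% and 19.3% of all genes. None had an adjusted p under 0.05 in limma with its default prior. With limma's trended and robust prior Sprr1a had 0.0305, the only member below the threshold. Values of the other cluster genes with that prior are not given here. The 3 higher Sprr genes were interleaved with Sprr2h, Sprr2k and Sprr3, which overlapped between the groups. Sprr2k, the only other Sprr gene with a kept single-gene probe set, differed by -0.06 ± 0.11. Sprr1a lay next to Ivl in this order, and the 2 differed by 0.50 and -0.03. On the far side of Ivl the late cornified envelope (Lce) genes, whose small proteins enter the envelope after loricrin, mostly had slightly lower means, and the other higher genes lay at both ends. These were Tchhl1, Tchh and Rptn at one end and Prr9 (0.75 ± 0.15), named after its value was seen, beside Lor at the other, with Lce3f (0.11 ± 0.10) between.

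**Figure D3:**
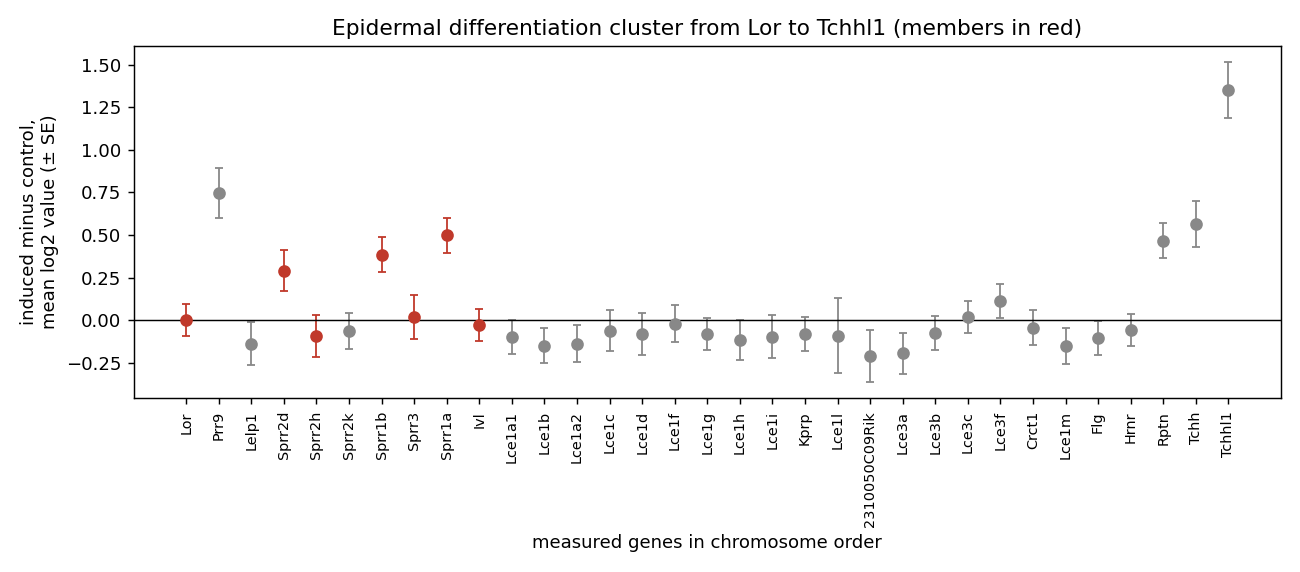
Difference of mean log2 value, induced minus control, with the standard error, for the 33 measured genes of the epidermal differentiation cluster in their order from Lor to Tchhl1; the axis gives order, not distance. Members (red) lie at the left, where Sprr1a, Sprr1b and Sprr2d stand above 0 and Lor, Ivl, Sprr2h and Sprr3 near 0.

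Other genes of the envelope were counted from lists of proteins and regulators. Among 15 Lce genes 13 had lower means after induction, as had 6782 of all 13489 genes, with a median of -0.09. In both induced arrays 6 were lower and 1 higher, against 19.3% and 20.1% of all genes. Without induced replicate 1, 5 means were higher and 10 lower, with a median of -0.06. The furthest were Lce3a (-0.20 ± 0.12), Lce1m (-0.15 ± 0.10) and Lce1b (-0.15 ± 0.10). Of 5 measured fused S100 proteins, which bind keratin filaments or the envelope, Tchhl1 (1.35 ± 0.16), Tchh (0.56 ± 0.13) and Rptn (0.47 ± 0.10) were higher in both induced arrays, and filaggrin (Flg, -0.10 ± 0.10) and hornerin (Hrnr, -0.06 ± 0.10) were lower in both. Tchh, trichohyalin, belongs to the inner root sheath.

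A list of 10 genes held cross-linking enzymes, plakins and sciellin, together with the protease inhibitor genes Csta1 and Cst6 and the keratinocyte genes Krtdap and Sbsn. Their differences ranged from -0.11 to 0.12, with a median of 0.03. The cross-linking enzymes Tgm1, Tgm3 and Tgm5 differed by 0.07 ± 0.10, 0.12 ± 0.20 and 0.07 ± 0.10, all overlapping between the groups, and the interval of Tgm3 ran from -0.37 to 0.61. The plakins envoplakin (Evpl, 0.12 ± 0.10) and periplakin (Ppl, -0.11 ± 0.10), which pair in the early envelope, lay on opposite sides of 0. Of 17 measured regulators of envelope genes, 16 had a higher mean, as had 6686 of all 13489 genes, and 13 were higher in both induced arrays, against 20.1% of all genes. Their median was 0.17. The furthest were Maf (0.77 ± 0.12), the AP-1 subunit Junb (0.33 ± 0.10) and Prdm1 (0.27 ± 0.15), whereas Jun differed by -0.07 ± 0.11. For 5 of the 17, Maf, Fosl1, Fosl2, Keap1 and Nfe2l2, another kept probe set had the opposite sign. No gene of these lists had an adjusted p under 0.05 in limma.

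Of 8 kept genes known from stressed epidermis, Krt6a, Krt6b and the growth factor gene Hbegf (0.20 ± 0.13) lay above both controls in each induced array. So did the members Sprr1a, Sprr1b, Sprr2d and Cnfn, and 20.1% of all genes. Krt6a stood at log2 values of 9.60 and 9.76 in control arrays, against 10.27 and 10.40 after induction, a difference of 0.66 ± 0.11. Krt6b differed by 1.36 ± 0.36, with induced replicate 1 (9.77) above induced replicate 2 (8.79). Krt16, their usual partner in wounded skin, differed by -0.18 ± 0.14 and Krt17 by -0.02 ± 0.14, and the alarmin genes S100a8 and S100a9 by 0.47 ± 0.28 and -0.05 ± 0.36, all 4 overlapping between the groups. Over the 8 genes of that list kept by the filter 4 means were higher and 4 lower, with a median of 0.09. Ptgs2 and Defb3 lay below the filter. The median was 0.04 without induced replicate 1, with 5 means higher and 3 lower, and 0.44 without induced replicate 2. None had an adjusted p under 0.05 in limma.

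**Figure D4:**
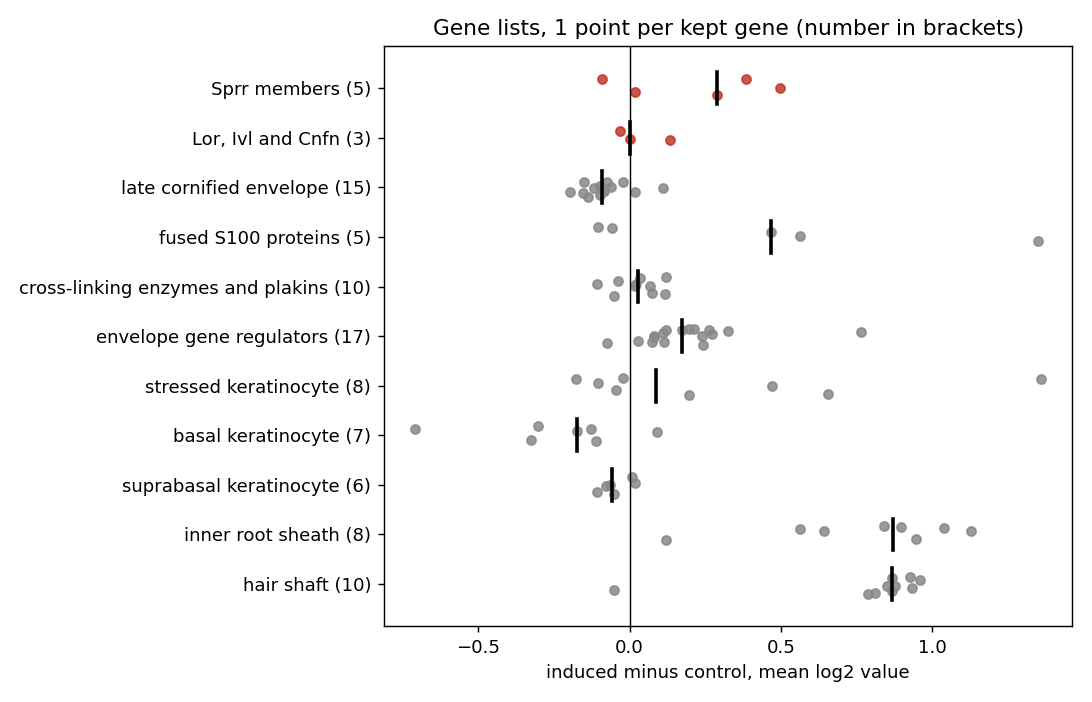
Difference of mean log2 value, induced minus control, with 1 point per gene and the median of each list as a bar, for the members (red) and for lists of other envelope genes and cell type markers (grey). The Sprr genes have a median of 0.29, Lor, Ivl and Cnfn of 0.00, the Lce genes of -0.09 and both hair lists of 0.87.

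Markers of other cells of the skin also differed between the groups. All 8 inner root sheath markers were kept and had higher means in the induced arrays, 7 of them in both arrays against 20.1% of all genes, with a median of 0.87. Their summed linear level was 17377 and 21541 in control arrays, against 29651 and 35673 after induction. Of 11 hair shaft markers 10 were kept, 9 of these were higher in both induced arrays, and the median was 0.87, with sums of 10909 and 15603 in control arrays, against 26473 and 21204 after induction. Basal keratinocyte markers had 6 of 7 lower in both induced arrays against 19.3% of all genes, with a median of -0.17. Their sums were 42532 and 42812 in control arrays, against 37985 and 36748 after induction. Of the 6 suprabasal markers 4 were lower in both induced arrays and 0 were higher in both, with a median of -0.06. The part of these shifts in the Sprr differences was not tested. No marker of these lists is at 0, as the deposited scale holds no zeros. The remaining lists had medians of 0.18 for melanocytes, -0.03 for Langerhans and T cells, -0.14 for fibroblasts and -0.14 for sebaceous gland, and 1 of 5 endothelial markers was kept (-0.27). Of the 6 fibroblast markers 3 were below the filter or absent. Without induced replicate 1 the medians were 0.49 for melanocytes, -0.21 for Langerhans and T cells, 0.28 for fibroblasts, 0.16 for sebaceous gland and -0.43 for the endothelial marker, those of fibroblasts and sebaceous gland with the opposite sign. Without induced replicate 2 they were -0.12, 0.10, -0.57, -0.47 and -0.11 in the same order.

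Genes with profiles close to those of Sprr1a and Sprr1b were found by distance. Likeness was the Euclidean distance between log2 profiles over the 4 arrays, each centred on its own mean, among 12788 named genes. The nearest to Sprr1a were Serinc2 (distance 0.04), Fmn1 (0.05), Krt8 (0.06), Anpep (0.06) and Ifitm3 (0.07). The nearest to Sprr1b were Pdk4 (0.04), Mettl26 (0.05), Stard3 (0.05), Cldn12 (0.05) and Ccdc28b (0.05). Sprr1b was itself at a distance of 0.24 from Sprr1a, at rank 252, the controls and the induced arrays each standing in opposite order in the 2 genes, and Sprr2d was nearer to Sprr1b (0.14) than to Sprr1a (0.35). With 4 arrays such nearness is a description of these profiles.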

How the data were processed

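The deposited values are log2 intensities summarised by RMA (version not given in the sources used here), per the submitters' processing notes. RMA corrects background, quantile normalizes between arrays and summarises probes per probe set. The forced common distribution hides changes in total RNA per cell, and the number of arrays limits the precision. No depth applies to arrays. The table held 45101 probe sets, of which 64 array controls were left out. Of the rest, 34945 carried 1 gene in the platform annotation, 932 several and 9160 were not listed, and none was named from several. Symbols came from the RefSeq table of GRCm38.p6 for 34741 of them.

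Probe sets with a mean at or above the 40th percentile (4.17) were kept. Induced and control arrays were compared by two-sided moderated tests (limma 3.58.1 under R 4.3.3), adjusted by Benjamini-Hochberg over the 27022 kept probe sets at a threshold of 0.05, with 2 residual degrees of freedom, a prior SD of 0.115 and 3.82 prior degrees of freedom. A gene was its brightest kept probe set.

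The members, gene lists and tests were chosen with earlier results of these data known. Named were all members, the members furthest from 0 and role examples of each list, and the 5 nearest profiles. Alternatives were other filters, normalization, centring, a trended robust prior, mean probe sets, a replicate block and leaving out each array; the crossed block and the counts without induced replicate 1 were chosen after seeing the data.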

Additional observations from a re-analysis of the deposited data

Results flagged for a closer look

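Probe sets that the annotation gives to several Sprr2a genes were outside the comparison and carried signal above both controls. One had log2 values of 7.30 and 7.79 in control arrays, against 8.17 and 8.30 after induction, a difference of 0.69 ± 0.18 (limma, adjusted p = 0.31). Another had 6.74 and 7.48 against 7.71 and 7.72, a difference of 0.61 ± 0.24 (limma, adjusted p = 0.477). Both were larger in size than the difference of Sprr1a, with a wider gap between the controls, and which gene copy gave the signal cannot be told from these probes. A further such probe set, at 2.79 to 2.99, lay below the filter.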

How the results depend on the processing

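Limma with its default prior called 0 of 27022 probe sets, and 2728 had an unadjusted p under 0.05. With the trended and robust prior 126 were called, among them Sprr1a (difference 0.50, adjusted p = 0.0305), the only member call in any alternative; leaving out 1 array gave 0 to 6. Of 87 alternative values for the 8 genes, 81 kept their sign and their side of the threshold and 5 changed sign, all in genes within 0.1 of 0. Changing the filter, the prior or the block leaves the difference of a gene as it is, so those values could not change sign. The count describes the settings run and is no test of stability. Sprr2h ran from -0.23 to 0.0411 and Sprr3 from -0.11 to 0.15 with 1 array left out, and Lor from -0.0013 to 0.0018, or -0.0048 when centred on array medians. The cause was not tested. The median of the Sprr genes less that of the scaffold genes ran from 0.19 to 0.39 over the alternatives. The prior and block settings cannot move it, nor can centring on array medians. Leaving out 1 of 2 arrays of a group moves it by about its spread between arrays at most, so this range is no test of stability. Sprr3 gave no value with the filter at the 60th percentile. The labels do not say that replicate numbers mark litters, and same-numbered arrays deviated with r = -0.10 over 27022 probe sets; the replicate block called 0 probe sets, as did the crossed replicate block, and left Sprr1a at 0.50 (adjusted p = 0.467). With 2 arrays per group, p-values lean on a spread shared across probe sets, and probe sets near the top of the range vary little.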
